A study of Mus musculus with 8 samples.

Results

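Zscan4c, Zscan4d, Zscan4f, Gm5662, BC080695, Gm21293, Gm21304, Gm6763 and Gm8764 are 9 weakly expressed genes of 4 multicopy families, out of 13558 transcripts in the table. They were picked by gene symbol and had been selected on their lower values in Trim71 knockout cells of these same libraries, partly through a difference between clones. Their KO and WT levels are therefore a description and were not tested. All 9 were in the deposited table, and because 4 of them share every value they amount to 6 distinct rows.

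The libraries were mRNA-seq of male C57BL/6 mouse embryonic stem (mES) cells grown with FCS and LIF and enriched for SSEA-1, a surface sugar of undifferentiated mES cells, on magnetic columns. WT denotes 4 libraries of Trim71 conditional cells, in which Trim71 is flanked by recombination sites and a tamoxifen-inducible Cre is made from the Rosa26 locus. KO denotes 4 libraries of such cells after 2 days with 500 nM 4-hydroxytamoxifen (4-OHT) and at least 7 more days of culture, and by the study's methods control cells received the solvent DMSO. Dose and later culture time are those of the labels, and the study's methods give other values for both. Clone E3 gave KO replicates 1 to 3 (days 2, 3 and 4) and WT replicates 2 and 3 (days 3 and 4), while clone 1 gave KO replicate 4 (day 5) and WT replicates 1 and 4 (days 1 and 5). What the labels call a day was not defined further.

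Zscan4 proteins carry a SCAN domain and zinc fingers. The genes are active in the embryo at the 2-cell stage and, in mES cell cultures, in a small and changing fraction of cells, the 2-cell-like cells, where they have been linked to telomere maintenance and genome stability. Several other repeated gene families are known to be on in the same cells, among them copies of the translation initiation factor Eif1a, of the mRNA export adaptor Alyref and of the PRAME gene family. In bulk libraries such as these, fewer 2-cell-like cells and less RNA per such cell cannot be told apart.

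The identity of the copies matters for every value below, because reads that match several copies cannot be assigned. By RefSeq on GRCm38, Zscan4c lies at chr7:11005745-11010547 (plus strand), Zscan4d at chr7:11161643-11166148 (minus strand) and Zscan4f at chr7:11397915-11402318 (plus strand). Each has 4 exons and a coding sequence of 1518 bases. The coding sequences of Zscan4c and Zscan4f were 99.6% identical (6 differences), and that of Zscan4d was 97.7% identical to either (35 differences). The 100-base coding stretch in which the 3 differ most, bases 666 to 765 from the start codon, shows how few positions tell the copies apart. Capitals mark the 8 positions that are not the same in all 3.
Zscan4c: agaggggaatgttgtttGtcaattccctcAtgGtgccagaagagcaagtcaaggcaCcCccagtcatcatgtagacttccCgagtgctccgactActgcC
Zscan4d: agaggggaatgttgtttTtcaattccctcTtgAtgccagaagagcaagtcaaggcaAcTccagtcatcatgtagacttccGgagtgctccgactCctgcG
Zscan4f: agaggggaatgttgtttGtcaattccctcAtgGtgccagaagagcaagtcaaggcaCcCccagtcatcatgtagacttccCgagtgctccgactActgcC
All 8 set Zscan4d apart from Zscan4c and Zscan4f. Of all 100-base windows of the transcripts, 72.8% in Zscan4c, 89.5% in Zscan4f and 29.6% in Zscan4d also occur without a mismatch in another annotated gene, so Zscan4d is the copy with most sequence of its own.

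The promoters of the 3 Zscan4 members are shown because the copies share the sequence just upstream. RefSeq promoter windows, from 250 bases before to 50 bases after the start, were found for 6 of the 9 members. Those of Zscan4c and Zscan4f were 99.3% identical over 277 aligned bases and those of Zscan4c and Zscan4d 97.2% over 289. The last 100 bases before the annotated start are printed, at chr7:11005645-11005744 (plus), chr7:11166149-11166248 (minus) and chr7:11397815-11397914 (plus) of GRCm38, with a TATAAA match in capitals.
Zscan4c: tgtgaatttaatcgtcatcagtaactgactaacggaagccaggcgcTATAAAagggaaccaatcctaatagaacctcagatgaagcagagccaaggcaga
Zscan4d: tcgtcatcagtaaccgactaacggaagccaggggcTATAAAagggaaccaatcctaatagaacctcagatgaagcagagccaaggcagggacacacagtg
Zscan4f: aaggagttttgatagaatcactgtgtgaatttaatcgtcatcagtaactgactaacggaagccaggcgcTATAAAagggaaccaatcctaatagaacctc
The same TATAAA stretch lies 54, 65 and 31 bases before the annotated start in Zscan4c, Zscan4d and Zscan4f, and 31 bases before it in Zscan4b, so the annotated starts differ while the surrounding sequence is shared. TATAAA on either strand occurs in 14.2% of the 27025 RefSeq promoter windows of this length, and TGCACAC, a motif described for Zscan4 binding, in 4.2% of them. TGCACAC was not found in the 6 windows of the members.

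Gm5662, a gene related to Eif1a, lies at chr12:88270635-88274497 (minus strand, 2 exons, 432 coding bases). Gm2016 was 99.3% identical to it over 1766 bases, and BB287469 91.8%. In Gm5662, 58.4% of the 100-base windows occur in another gene, but none of them in a gene of the table. BC080695, a PRAME-like gene that RefSeq lists as Pramel20, lies at chr4:143567467-143573798 (plus strand, 4 exons, 1443 coding bases). Its closest relatives Gm13040, Gm13057 and Gm13043 were 98.0% identical and Gm13119 96.0%, and 39.8% of its windows were shared. The stretches where these members differ most from a measured relative are given with the differing positions in capitals, the first pair at coding bases 50 to 149 and 95 to 194 and the second at 177 to 276 in both genes.
BC080695: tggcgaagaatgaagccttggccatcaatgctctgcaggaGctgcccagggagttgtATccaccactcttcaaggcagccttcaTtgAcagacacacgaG
Gm13057: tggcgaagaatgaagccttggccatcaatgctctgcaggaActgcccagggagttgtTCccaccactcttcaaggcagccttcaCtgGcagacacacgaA
Gm5662: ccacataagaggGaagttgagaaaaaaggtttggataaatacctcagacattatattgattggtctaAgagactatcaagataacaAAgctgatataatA
BB287469: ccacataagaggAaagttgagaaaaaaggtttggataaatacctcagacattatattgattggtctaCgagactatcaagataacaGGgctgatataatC

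Gm21293, Gm6763, Gm8764 and Gm21304 are Alyref-like genes in a tandem array on chromosome 10, at chr10:104142987-104145427, 104151497-104153936, 104160006-104162444 and 104168515-104170954 (plus strand, 2 exons each). Over 699 aligned coding bases Gm21293 was 83.5% identical to Alyref. The 4 transcripts, of 1246 bases, were 100% identical to one another, and so were those of the next copies in the array, Gm21312 and Gm20765. The promoter windows of Gm21293, Gm21304 and Gm8764 were identical over all 300 bases, and the last 100 bases before the start of Gm21293, at chr10:104142887-104142986, stand for all 3.
Gm21293: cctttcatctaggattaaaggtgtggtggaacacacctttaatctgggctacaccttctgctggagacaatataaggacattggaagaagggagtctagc
The 4 members carried the same value in each of the 8 libraries and are described as 1 row under the name Gm21293. In the whole table, 26 rows in 11 groups were such repeats. Gm20765 and Gm21312 also shared all values with each other, but not with the 4 members, although the GENCODE M21 transcripts do not differ in a single base. The authors counted reads on RefSeq models. In the RefSeq positions used here, Gm21304, Gm6763 and Gm8764 end before the GENCODE gene does, while Gm20765 and Gm21312 end with it. Whether the counted models differ in sequence was not tested.

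In the targeted gene itself, Trim71, the deposited normalized read count in the KO libraries, taken in replicate order here and below, was 500, 793, 733 and 247, and in the WT libraries 2782, 2736, 1988 and 2584, without overlap. This was a log2 fold change of -2.39 ± 0.35 (SE), with an unadjusted limma p of 0.000201 and an adjusted p of 0.294. By the study's methods Cre removes the last exon, so reads of the other exons remain in KO. Summed levels of the 8 ES cell markers ranged from 51074 to 66210 in KO and from 46854 to 58604 in WT. The 4 measured of 8 fibroblast markers summed to 97 to 178 in KO and 75 to 155 in WT, the 7 primitive endoderm markers to 279 to 602 and 93 to 474, and the 6 measured of 7 trophoblast markers to 1646 to 3341 and 1682 to 2737. At least 1 library was at the lowest possible value in 1 fibroblast, 3 primitive endoderm and 2 trophoblast markers, and in no ES cell marker. Their part in the members' values was not tested.

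The deposited values are read counts scaled per library, to which an additive correction between clones was applied, and every result below 1 was set to 1, the floor. In a weak transcript this shift is large beside the reads. For Zscan4c it added 17.0 normalized counts in each clone E3 library and took 17.0 away in each clone 1 library. For the other 5 rows it was between 6.96 (Zscan4d) and 13.5 (Zscan4f). Whole reads were therefore worked back from the table, and each level is given both as deposited and with the correction undone. Recovered reads over all transcripts came to between 6528913 (WT replicate 2) and 24395899 (WT replicate 3) per library.

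Few reads stood behind the members in KO. Over the 6 distinct rows, a KO library had between 0 and 10 reads of a member and a WT library between 1 and 107. Because the authors kept a transcript once its mean reached 10 in either group, 7 of the 9 members (4 of 6 rows), with KO means under 10, were in the table only through WT and had to be lower in KO. In all, 266 transcripts had a KO mean under 10 and 203 a WT mean under 10.

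Zscan4c had 0, 2, 3 and 4 reads in KO and 69, 9, 20 and 61 in WT. Its normalized counts with the correction undone were 0, 1.75, 2.77 and 5.33 in KO and 57.8, 15.9, 8.85 and 79.95 in WT. Every KO library was below every WT library, and the clone 1 WT libraries stood well above those of clone E3. As deposited the values were 17.0, 18.7, 19.7 and 1.00 in KO and 40.9, 32.8, 25.8 and 63.0 in WT, again without overlap, but KO replicate 4 was now the lowest KO library, where with the correction undone it was the highest. The log2 fold change was -2.08 ± 0.75 (SE) as deposited and -2.88 ± 0.46 with the correction undone.

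Zscan4d had 2, 2, 0 and 4 reads in KO and 28, 1, 15 and 21 in WT. The corresponding normalized counts were 1.95, 1.75, 0 and 5.33 in KO and 23.5, 1.76, 6.64 and 27.5 in WT. WT replicate 2, the shallowest library, lay among the KO values, so the groups overlapped, as they did in the deposited values, where WT replicate 2 was at 8.73 and the highest KO library at 8.91. For Zscan4d the log2 fold change was -1.42 ± 0.55 (SE), or -1.50 ± 0.48 with the correction undone.

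Zscan4f had 10, 4, 2 and 8 reads in KO and 107, 5, 39 and 17 in WT, or normalized counts of 9.74, 3.51, 1.85 and 10.7 in KO and 89.7, 8.81, 17.3 and 22.3 in WT. WT replicate 1 stood far above the rest, and WT replicate 2 lay below the 2 highest KO libraries. The deposited values, 23.2, 17.0, 15.3 and 1.00 in KO and 76.2, 22.3, 30.7 and 8.80 in WT, overlapped as well. Here the shift for clone 1 left WT replicate 4 below 3 of the 4 KO libraries. Its log2 fold change was -1.67, and -1.59 with the correction undone.

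Gm5662, the Eif1a-like member, had 3, 3, 4 and 9 reads in KO and 42, 9, 21 and 25 in WT. Its normalized counts were 2.92, 2.63, 3.70 and 12 in KO against 35.2, 15.9, 9.29 and 32.8 in WT, with KO replicate 4 above WT replicate 3. As deposited they were 10.95, 10.7, 11.7 and 3.97 against 27.2, 23.9, 17.3 and 24.7, without overlap. It was the only row in which KO replicate 4 stayed off the floor. In Gm5662 the log2 fold change was -1.40, and -1.60 with the correction undone.

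BC080695, the PRAME-like member, had 2, 4, 3 and 2 reads in KO and 40, 5, 12 and 23 in WT. Normalized counts with the correction undone were 1.95, 3.51, 2.77 and 2.67 in KO, the narrowest KO range of the 6 rows, and 33.5, 8.81, 5.31 and 30.1 in WT. The groups did not overlap, nor did the deposited values, which were 9.01, 10.6, 9.84 and 1.00 in KO and 26.5, 15.9, 12.4 and 23.1 in WT. The log2 fold change was -1.62, and -1.83 with the correction undone.

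Gm21293, standing for the 4 Alyref-like members, had 2, 1, 1 and 3 reads in KO and 39, 5, 23 and 28 in WT. Undoing the correction gave normalized counts of 1.95, 0.877, 0.925 and 4.00 in KO and 32.7, 8.81, 10.2 and 36.7 in WT, without overlap. The deposited values were 9.74, 8.67, 8.71 and 1.00 in KO and 24.9, 16.6, 18.0 and 28.9 in WT, and did not overlap either. The log2 fold change was -1.91, and -2.46 with the correction undone. Gm20765 and Gm21312 are array neighbours with the same GENCODE transcript sequence. They had 1, 0, 8 and 1 reads in KO and 12, 1, 7 and 23 in WT, so KO replicate 3 held more than WT replicates 2 and 3.

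**Figure D1:**
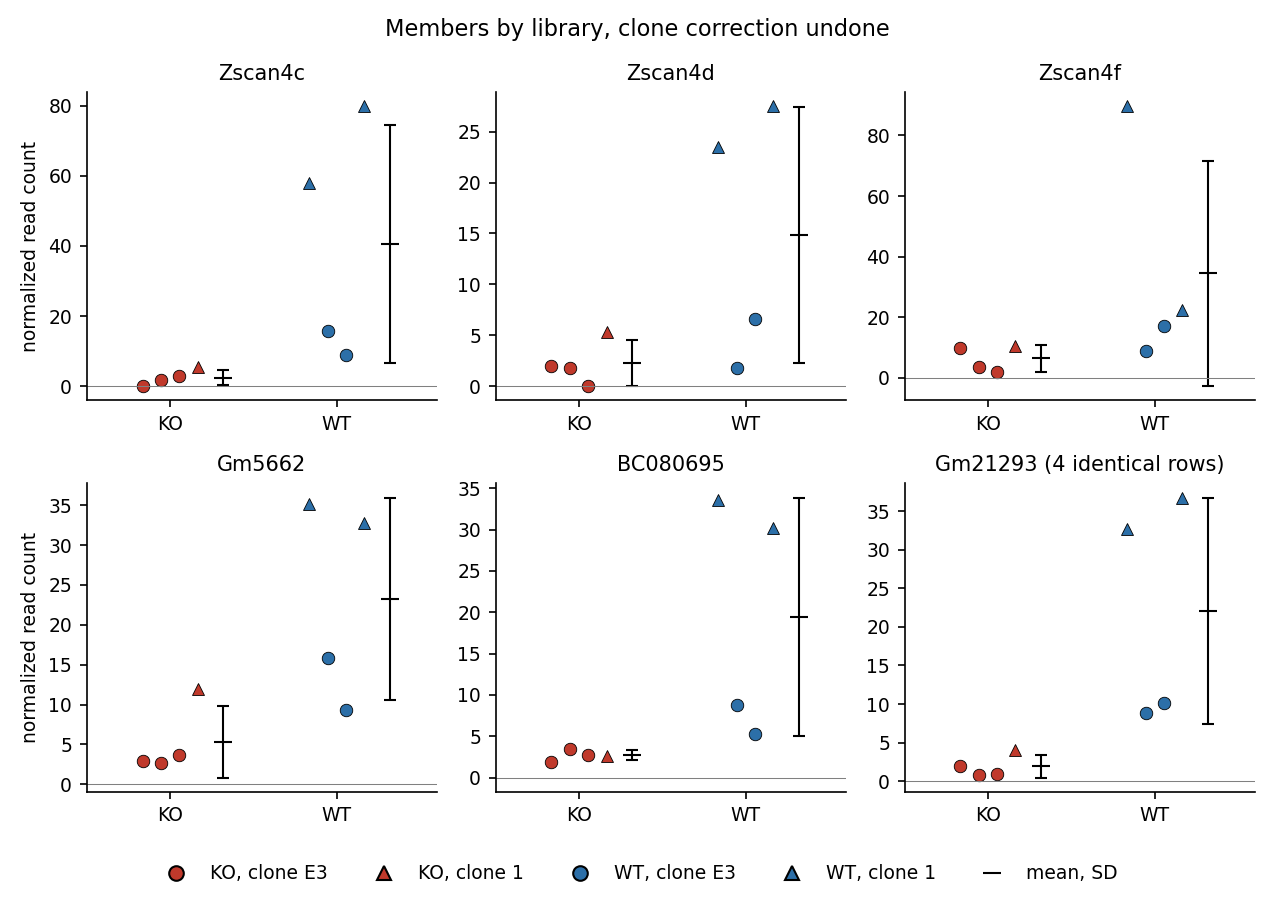
Normalized read counts (linear axis) of the 6 distinct rows in each library with the clone correction undone; circles are clone E3 libraries, triangles clone 1 libraries, and bars beside them the mean and SD of the 4 libraries. The clone 1 WT libraries are the top 2 points in every panel, and KO and WT overlap in Zscan4d, Zscan4f and Gm5662 but not in Zscan4c, BC080695 and Gm21293.

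Over the 6 rows the median log2 fold change was -1.65, with a range from -2.08 to -1.40, and -1.72 with the correction undone. Over all transcripts the median was -0.0004. The fold change criterion of the study (a change of 1.5-fold or more with p below 0.05 before adjustment) was met on the lower side by 8 of the 9 members, all but Zscan4f, and by 2.49% of all transcripts, and on the higher side by 0 members and 1.76% of transcripts. All KO libraries were below all WT libraries in 7 of the 9 members as deposited, against 4.62% of transcripts, and in 6 of 9 with the correction undone, against 3.36%. With day as a block, 6 of the 9 met the criterion, all but Zscan4c, Zscan4d and BC080695, against 4.35% of transcripts, and with the correction undone as well 8 of 9 did, all but Zscan4d, against 4.41%. As the members were selected on this contrast, nothing is read from these counts. After adjustment over all transcripts, limma gave 0 transcripts with an adjusted p under 0.05 (1232 had an unadjusted p under 0.05). The same fit gave 6 with the correction undone. The row shared by the 4 identical members was among them, so the 6 are not separate measurements, and nothing is read from them.

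Sums over a family do not depend on how reads were divided among the copies summed. Reads shared with copies outside the sum can still be missing from it, and a read counted for several copies would enter it more than once. Zscan4c, Zscan4d and Zscan4f together had 12, 8, 5 and 16 reads in KO and 204, 15, 74 and 99 in WT. Per 10000000 recovered reads this was 10.5, 6.27, 4.43 and 19.6 in KO and 154, 23.0, 30.3 and 119 in WT. The 95% Poisson intervals, which cover counting error only, were 11.2 to 31.9 for KO replicate 4 and 12.9 to 37.9 for WT replicate 2, the libraries nearest to each other, so this pair cannot be separated at this depth. The lower limits of WT replicates 1 and 4 were 134 and 96.6.

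With the correction undone the Zscan4 sum averaged 11.2 ± 7.39 normalized counts for KO and 89.98 ± 71.8 for WT (SD, n = 4 each), a ratio of 8.06 between WT and KO, and no KO library reached a WT library. As deposited the means were 34.6 ± 21.3 and 89.98 ± 31.5 (SD, n = 4 each) and the ratio was 2.60. The WT mean is the same on both scales because 2 of the 4 WT libraries came from each clone, so the shifts cancel, while 3 of the 4 KO libraries were shifted upwards. Adding Zscan4a and Zscan4b, the other copies measured, gave ratios of 8.44 and 2.65, from 57 reads in KO and 562 in WT. The sum of all 6 distinct rows, with the repeated row counted once, was 58.6 ± 33.2 in KO and 155 ± 44.9 in WT as deposited (SD, n = 4 each) and 21.1 ± 12.9 and 155 ± 112 with the correction undone, a ratio of 7.32. Each day's KO library was also set against its WT library (days 3, 4 and 5, 6 libraries). The deposited log2 ratios of the days averaged -2.07 for the Zscan4 sum and -1.88 for all 6 rows. In the day 5 pair KO replicate 4 was at 3.00 and 8.97, and WT replicate 4 at 92.3 and 169. Over the 8 libraries the log2 ratios of the group means were -1.38 and -1.40. A mean of log2 ratios is another measure, so the day values do not show a larger difference.

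**Figure D2:**
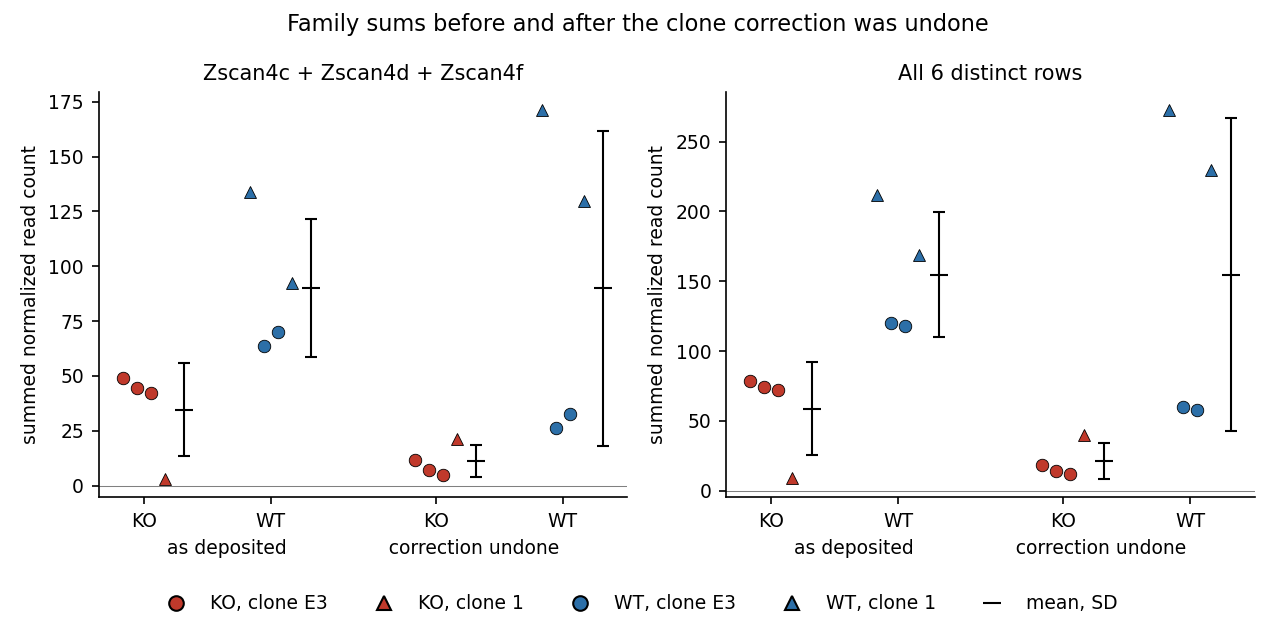
Summed normalized read counts (linear axis) in each library, as deposited and with the clone correction undone; circles are clone E3, triangles clone 1, and bars the mean and SD of 4 libraries. KO replicate 4 is the lowest library as deposited (3.00 for Zscan4, 8.97 for all 6 rows) and the highest KO library once the correction is undone (21.3 and 40.01).

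The clones differed in the members within WT. The WT libraries of clone 1 averaged 150 normalized counts for the Zscan4 sum and those of clone E3 29.6, with the correction undone. The median difference over the 6 rows was 1.92 on the log2 scale, with values between 1.41 (Gm5662) and 2.52 (Zscan4d). Within each clone, KO was below WT in all 6 rows. With the correction undone, the median log2 difference of KO and WT was -1.54 in clone E3 (3 KO, 2 WT libraries) and -2.45 in clone 1 (1 KO, 2 WT libraries). In the deposited values the same medians were -0.56 and -3.73. The Zscan4 sum of WT exceeded that of KO 3.80 times in clone E3 and 7.05 times in clone 1 with the correction undone, and 1.48 and 37.7 times as deposited. The gap between the clones in the KO and WT difference was thus smaller with the shift removed, while the median difference between the WT libraries of the clones was larger, 1.92 against 0.66 as deposited. Gm5662 turned around, with -1.70 in clone E3 and -1.43 in clone 1, and BC080695 kept a wider gap, -1.09 and -3.16. With a single KO library in clone 1, neither has a replicate there, and day and clone cannot be told apart in clone 1 KO cells.

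KO replicate 4 weighed heavily on the deposited log2 fold changes of the single rows. It was at the floor in 8 of the 9 members (5 of 6 rows), where 2 to 8 reads had been recovered, and no other library was at the floor in any member. Without it, the median log2 fold change of the 6 rows was -0.57 as deposited and -1.54 with the correction undone. As it is the only clone 1 KO library, these values are the differences within clone E3 again and no separate check. The deposited log2 ratios of the sums changed less, from -1.38 to -0.99 for Zscan4 and from -1.40 to -1.04 for all 6 rows.

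The other copies of Zscan4 were measured in 2 of 6 cases, and both, Zscan4a and Zscan4b, fell by the fold change criterion. Each shares sequence with the members and may share reads with them, so neither is taken as an independent measurement. Both were in the table through WT alone. Zscan4a had 0, 0, 3 and 1 reads in KO and 36, 3, 8 and 22 in WT, a log2 fold change of -1.57 ± 0.56 (SE) with an unadjusted limma p of 0.0266 and an adjusted p of 0.491. Zscan4b had 1, 2, 4 and 5 reads in KO and 36, 5, 27 and 33 in WT, and a log2 fold change of -1.87 ± 0.57 (unadjusted limma p 0.0135, adjusted p 0.457). In both, all KO libraries were below all WT libraries in the normalized counts, as deposited and with the correction undone, but not in reads before scaling. With day as a block their unadjusted limma p-values were 0.119 and 0.0804, and 0.0360 and 0.00111 with the block and the correction undone. Without KO replicate 4 the log2 fold changes were -0.47 and -0.77 as deposited. With the correction undone they were -1.78 and -1.94 without it (unadjusted limma p 0.0245 and 0.00236). As deposited, Zscan4a also missed the criterion without WT replicate 1 (p 0.0524) or WT replicate 4 (p 0.0542).

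Of 50 other genes known from 2-cell-like cells, 11 were measured, 7 of them with a KO mean under 10 and thus through WT alone. By the criterion 4 fell and 0 rose, 0 had an adjusted p under 0.05, and the median log2 fold change was -1.32. The 4 were Gm20767, the ubiquitin-specific protease Usp17la, the membrane protein gene Tmem92 and the PRAME-like Gm13057. Usp17la had the smallest p, with 0, 3, 4 and 0 reads in KO and 14, 4, 15 and 14 in WT, a log2 fold change of -1.66 ± 0.43 (SE) and an unadjusted limma p of 0.00552 (adjusted p 0.446). Tmem92 had 0, 0, 5 and 4 reads in KO and 39, 1, 18 and 31 in WT, so WT replicate 2 lay among the KO libraries. Its log2 fold change was -1.56 ± 0.65 (unadjusted limma p 0.0454). Gm20767 had a log2 fold change of -1.51 and Gm13057 one of -1.55, with unadjusted limma p-values of 0.0242 and 0.0256. With day as a block the unadjusted p-values of Gm20767, Usp17la, Tmem92 and Gm13057 were 0.121, 0.0570, 0.158 and 0.0917, so none of the 4 met the criterion. With the block and the correction undone they were 0.0537, 0.0606, 0.0185 and 0.00863. Without KO replicate 4, as deposited, Usp17la alone of the 4 stayed under 0.05 (0.0363, log2 fold change -1.04). The others had log2 fold changes of -0.51 to -0.33 with p-values from 0.0726 to 0.267. With the correction undone and without KO replicate 4, the 4 log2 fold changes were -1.67, -1.61, -1.48 and -1.49 in the same order. Their unadjusted limma p-values were 0.0513, 0.0480, 0.141 and 0.0278. As deposited, Gm13057 also missed the criterion without WT replicate 1 (p 0.0522), and Tmem92 without any 1 library other than KO replicate 3 and WT replicate 2 (p-values from 0.0601).

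Among PRAME-like genes, the family of BC080695, 10 of 42 were measured and 2 fell by the criterion, Gm13040 and Gm13057, which share all 8 values and are close copies of BC080695. Both had KO means under 10 and were in the table through WT alone, so a lower KO value was fixed by the filter. The median of the 10 was -0.38. The relatives Gm13119 and, for Gm5662, BB287469 did not meet the criterion. Gm13119 had 0, 0, 2 and 1 reads in KO and 17, 0, 11 and 18 in WT, and BB287469 2, 0, 0 and 2 reads in KO and 28, 0, 11 and 21 in WT, so WT replicate 2 held no read of either. Of the 10, 7 had a log2 fold change below 0 and 3 above it. Pramel7 and Pramel6 were at -1.21 and -0.59 (unadjusted limma p 0.151 and 0.392). Pramef8, a gene with higher counts, had 534 ± 34.1 normalized counts in KO and 597 ± 40.5 in WT (SD, n = 4 each).

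Zscan genes outside the cluster, which carry the same kind of SCAN and zinc finger domains, were measured in 11 of 12 cases and 0 met the criterion in either direction. Their median log2 fold change was -0.17. Those with the smallest p were Zscan2 (-0.23 ± 0.12 SE, unadjusted limma p 0.102) and Zscan29 (-0.17 ± 0.12, p 0.176). Zscan10, a factor of mES cells, was at 1537 ± 187 in KO and 1749 ± 241 in WT (SD, n = 4 each).

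Genes reported to activate the 2-cell-like state were measured in 11 of 12 cases, and 1 fell by the criterion, the homeobox gene Obox6. It had 40, 15, 22 and 15 reads in KO and 66, 31, 83 and 50 in WT. The deposited values were 42.3, 16.5, 23.7 and 16.7 in KO and 52.0, 57.9, 40.1 and 62.2 in WT, and KO replicate 1 lay within the WT range. Obox6 had a log2 fold change of -1.18 ± 0.33 (SE), an unadjusted limma p of 0.00828 and an adjusted p of 0.452, and without KO replicate 4 the unadjusted p was 0.0640. Dppa2 and Dppa4, chromatin factors upstream of these genes, were at 889 ± 105 and 1647 ± 218 in KO and 973 ± 193 and 1588 ± 145 in WT (SD, n = 4 each). The median of the 11 was -0.04.

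Of 40 repressors of the state, all measured, 0 met the criterion. The median log2 fold change was -0.07. The smallest p-values were those of Ehmt2, a histone H3 lysine methyltransferase (0.38 ± 0.15 SE, unadjusted limma p 0.0351, under the 1.5-fold limit), and of Lin28a, an RNA-binding protein (-0.42 ± 0.21, p 0.0781). Both depended on single libraries. Lin28a met the criterion without WT replicate 3 (-0.69, p 0.0018) and was at -0.22 without KO replicate 4 and -0.29 without WT replicate 2, and the p of Ehmt2 was above 0.05 without any 1 library other than KO replicate 1 and WT replicate 2. With day as a block 5 of the 40 fell by the criterion, Atrx, Hells, Mga, Ncl and Rif1, named after their values were seen. With the correction undone as well only Atrx did, but Ncl had no recovered reads and was not in that fit. Atrx was at 1234 normalized counts in KO replicate 3 with the correction undone, and at 6320 to 7234 in the other KO libraries. Rif1, a telomere-associated protein, was at 5525, 6420, 1452 and 4614 in KO and 7714, 9696, 5131 and 6890 in WT as deposited, with KO replicate 3 far below the other libraries. Of 20 measured telomere and recombination genes, the processes to which Zscan4 has been linked, 1 fell by the criterion, Rad50, a subunit of the MRN DNA repair complex. Its deposited values were 1336, 1358, 498 and 1071 in KO and 1758, 1778, 1750 and 1760 in WT. For Rad50 the log2 fold change was -0.81 ± 0.33 (unadjusted limma p 0.0443), and 0.0742 with the correction undone. KO replicate 3 was the lowest KO library by far, and without it the log2 fold change was -0.52, under the 1.5-fold limit. Rad50 also missed the criterion without KO replicate 4 or any 1 WT library, with p-values from 0.0692 to 0.103. Tert, the telomerase catalytic subunit, was at 356 ± 97.8 in KO and 375 ± 81.9 in WT (SD, n = 4 each).

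Over the 103 distinct genes of these 7 lists, 9 met the criterion on the lower side and 0 on the higher, with a median log2 fold change of -0.09. Of the 9, 7 (Zscan4a, Zscan4b, Gm20767, Usp17la, Tmem92, Gm13040 and Gm13057) had KO means under 10, were in the table through WT alone and could differ in no other direction, so nothing is read from their number. Of the 93 genes with KO means of at least 10, 2 fell, Obox6 and Rad50, against 2.49% of all transcripts. The lists were drawn up with the members' result known.

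**Figure D3:**
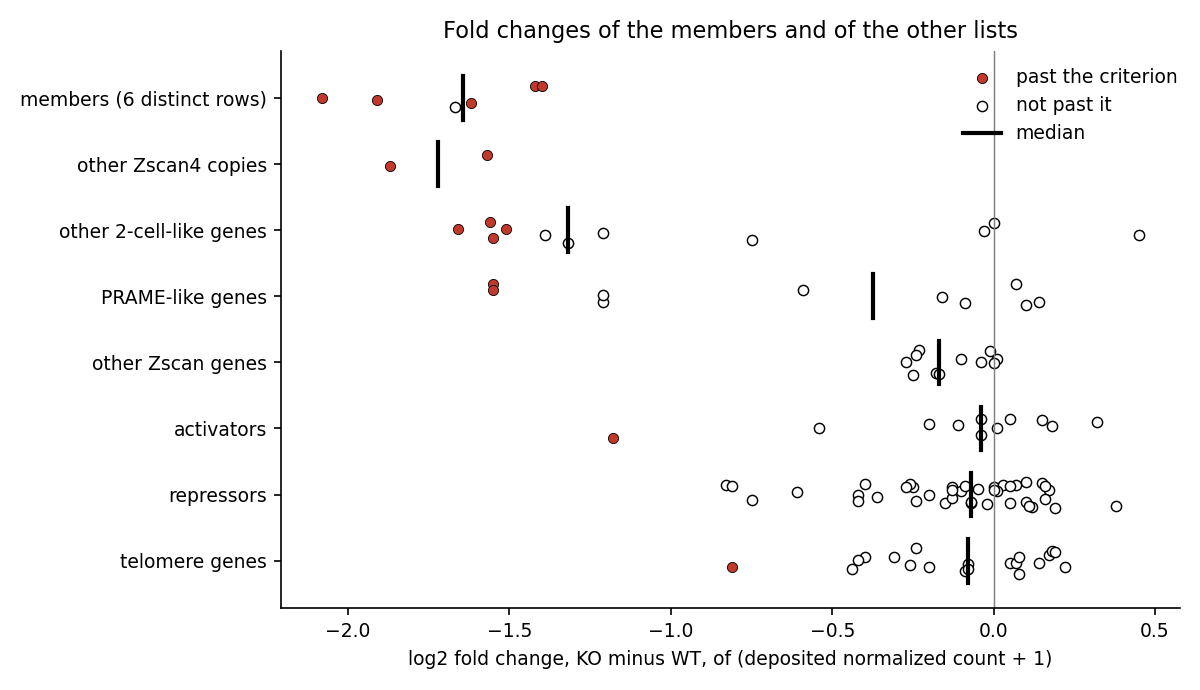
Log2 fold changes of KO minus WT on the deposited scale (x axis) for each measured gene of the members and of 7 other lists (rows); filled points met the fold change criterion, bars are medians, and vertical scatter within a row has no meaning. The members, selected on this contrast, lie between -2.08 and -1.40, and the lists of other Zscan genes, activators, repressors and telomere genes have medians between -0.17 and -0.04.

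Likeness to the Zscan4 members was measured only for transcripts outside the members with a mean of at least 20 (12423 as deposited). This left out weak relatives and 2-cell-like genes such as Zscan4a, Zscan4b, Gm13040, Gm13057 and Gm20767. The most alike of those compared were found over the 8 libraries by Pearson correlation of log2(value + 1) with the mean of the Zscan4c, Zscan4d and Zscan4f rows. On the deposited values they were Aurkc (r = 0.982), a kinase of meiotic cells, Rpl39l (0.981), a ribosomal protein paralog, Prr19 (0.968), Nexn (0.967), an actin-binding protein, and Itih5 (0.964). Aurkc was at 21.4, 21.8, 16.1 and 1.00 in KO and 86.1, 44.8, 63.1 and 51.2 in WT, and Rpl39l at 69.1, 38.2, 27.9 and 2.27 in KO and 153, 72.7, 75.7 and 59.8 in WT. Both had their lowest value in KO replicate 4, as the members did. With the correction undone the 5 most alike were Nexn (0.981), Tspan2 (0.979), Cgnl1 (0.975), Tubgcp4 (0.974) and Simc1 (0.967), so only Nexn was in both lists. The 8 points share library, depth, clone and day with the members, and the values describe likeness only.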

How the data were processed

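RNA of 8 mES cell libraries (4 KO, 4 WT) was sequenced with an unstranded kit. Per the study's methods, 100-base paired reads were aligned to mm10, the UCSC name of GRCm38, with Bowtie2 2.2.1 and TopHat2 and counted per RefSeq transcript in Partek 6.6, after base calling with CASAVA 1.8. The authors scaled the counts with DESeq2. How reads that match several places were counted is not given in the sources used here. The deposited values are thus a normalized signal: the authors corrected it for batch, set values under 1 to 1 and dropped transcripts whose group means were all under 10. Columns left unused numbered 0.

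The correction was an additive clone effect. It was undone by searching for whole reads times a factor per library plus a shift per transcript. This gave unique reads for 13439 of 13558 transcripts (99.1%) and all 9 members. The search was tested on simulated data, where 13261 of 13271 transcripts were recovered. The totals count recovered transcripts only.

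All transcripts were fitted with limma 3.58.1 (R 4.3.3) on log2(value + 1) against genotype and clone, with Benjamini-Hochberg adjustment over all of them. The added 1 shrinks fold changes of weak transcripts, but they are not lower limits, as the floor and the clone shift also act on them. The deposited median of the 6 rows was -1.65 on this scale and -1.34 as the log2 ratio of group means. The fit was tried on 13258 simulated transcripts, 200 of them given a log2 change of 2. At an adjusted p under 0.05, limma called 188 of the 200 and 6 others. The simulated transcripts had no difference between clones and the same count spread throughout, unlike the members. The result therefore checks the fit and does not give its power in these data, where the lowest adjusted p was 0.275 as deposited. The unadjusted criterion was not tried in this way. Alternatives were another pseudocount (10), no clone term, the correction undone, voom on recovered reads, untransformed values, day as a block, a mean of at least 50, no transcript at the floor and each library left out. Chosen after the data were seen were the block with the correction undone, each library left out with the correction undone (family sums too), and days 3, 4 and 5 with no block. Replicates were numbered in accession order. The labels do not say that libraries came from separate cultures, so p-values measure the spread between these libraries.

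The labels' day pairs KO and WT libraries on days 3, 4 and 5. With the correction undone, deviations from the group means correlated at 0.54, 0.63 and 0.52 in these pairs, against a median of -0.18 over the 13 other pairs. Deposited values gave 0.42, 0.54 and -0.23.

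Sequences were compared with BLAST 2.17.0 and MAFFT 7.526 on GENCODE M21 transcripts. Promoter sequences and positions are from RefSeq on GRCm38. The members and the gene lists were chosen with earlier results of these data known. Named were all members, the other Zscan4 copies, the genes of each list past the criterion or else the 2 with the smallest p, the 5 transcripts most like Zscan4, and Trim71. Relatives and well-known genes given with levels only were added after their values were seen.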

Additional observations from a re-analysis of the deposited data

Results flagged for a closer look

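In groups of 4 libraries, the highest or lowest library was set apart where its gap to the nearest other one exceeded Dixon's 95% critical share of the group's range. This held in 8 of 54 groups examined. Chance would give about 2.7 in independent groups, but the members were examined on both scales, which are linked. They had also been selected on this contrast, partly through a difference between clones, so nothing is read from the number. On the deposited scale KO replicate 4 stood apart in Zscan4c, BC080695 and Gm21293, each at 1.00, and in Gm5662 at 3.97. With the correction undone KO replicate 4 was not set apart in Zscan4c, BC080695 or Gm21293, and in Gm5662 it stood apart on the other side, at 12 normalized counts. Zscan4f stood apart in WT replicate 1 at 89.7 with the correction undone. Outside the members, Usp17la was at 16.5 in WT replicate 4 and Zscan29 at 160 in KO replicate 2.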

How the results depend on the processing

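The median log2 fold change of the 6 rows was below 0 under every setting run. It was -1.46 with day as a replicate block and -1.68 with the block and the correction undone. Leaving out 1 library at a time gave -2.03 to -0.57 as deposited, the weakest without KO replicate 4, and -2.0 to -1.54 with the correction undone. The log2 ratio of the Zscan4 sum moved from -1.38 to -3.01 and that of all 6 rows from -1.40 to -2.87 when the correction was undone. Without single libraries these ratios ranged from -1.59 to -0.99 and from -1.58 to -1.04 as deposited, and from -3.53 to -2.50 and from -3.38 to -2.45 with the correction undone. Within clone E3 the median went from -0.56 to -1.54 and within clone 1 from -3.73 to -2.45. The additive shift is what differs between those settings.

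Of the 103 list genes, 9 fell by the criterion. The number was 10 with day as a block, of which only Obox6 and Rad50 were among the 9 and the other 8 were Atrx, Hells, Mga, Ncl, Pramel7, Rif1, Terf1 and Zfp820. It was 11 with the block and the correction undone, 6 of them among the 9. In the deposited values of the same 6 libraries the number was 2 with no block, against the 10 with it. It was 2 on untransformed values, 1 with a mean of at least 50 and 2 without transcripts at the floor, both of which remove the weak genes. Without single libraries it ranged from 2 to 11 as deposited (2 without KO replicate 4, 4 without WT replicate 1) and from 5 to 11 with the correction undone (5 without KO replicate 4). None rose under any setting. Over all transcripts, 338 fell and 238 rose, against 590 and 425 with day as a block and 145 and 115 without KO replicate 4. The cause was not tested. With day as a block, Zscan4a, Zscan4b, Gm20767, Usp17la, Tmem92, Gm13040 and Gm13057 no longer met the criterion. In the same 6 libraries with no block, of these genes only Usp17la met it. A mean of at least 50 and the removal of transcripts at the floor left no value for the 6 rows together. With 0 to 10 reads per KO library in each member, fold changes of single copies are coarse.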

Other observations

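The balance between the near-identical copies Zscan4c and Zscan4f was not the same in the WT libraries. Zscan4f took 60.8% of the reads of both in WT replicate 1 (107 of 176, 95% Wilson interval 53.4 to 67.7%) and 21.8% in WT replicate 4 (17 of 78, 14.1 to 32.2%), which are both of clone 1. In clone E3 it took 66.1% in WT replicate 3 (39 of 59, 53.4 to 76.9%) and 35.7% in WT replicate 2 (5 of 14, 16.3 to 61.2%). In KO it took 24 of 33 reads over the 4 libraries, 72.7% (55.8 to 84.9%). The intervals cover counting error only, and how reads matching both copies were assigned is not given in the sources used here.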
